A study of Mus musculus with 8 samples.

Results

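Among the 22553 genes measured, 10 genes of non-neuronal cells of the olfactory epithelium, Scgb1c1, Muc2, Tsku, Pon1, Gldn, Sec14l3, Abca13, Cpm, Tyro3 and Il33, were followed across sorted olfactory cells of mice with and without Mex3a. They were selected on their ribosome footprints, which were highest in Ngn1-GFP+ cells of control mice, so their high values in that group are a description and not a finding. Mex3a encodes an RNA-binding protein with a ubiquitin ligase domain, and the study measured ribosome-protected RNA fragments (footprints) beside input RNA in cells sorted from the main olfactory epithelium. Ngn1-GFP+ cells, marked by a transgene, are late neuronal progenitors and immature olfactory sensory neurons, and OMP-GFP+ cells, marked by a knock-in allele, are mature olfactory sensory neurons. The control mice carried 1 or 2 floxed alleles of Mex3a (flox/+ or flox/flox) and no Cre driver, and the knockout (KO) mice were flox/flox and carried a Cre driver. For the OMP-GFP KO the genotype tag names OMP-ires-Cre where the description names OMP-ires-GFP, and the group was taken from the description. The labels give no age, sex or number of mice behind a library.

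The olfactory epithelium holds, beside its neurons, sustentacular cells that span its depth and detoxify, support and engulf, Bowman's glands that secrete mucus and odorant-binding proteins, microvillar cells, and basal stem cells. Mucus over the cilia is built from gel-forming mucins, small secreted carriers and enzymes, and support cells also move lipids, trim peptides and take up dead cells through receptors of the TAM family. The 10 genes fall into secreted or matrix proteins, lipid handlers, surface proteins and a nuclear cytokine.

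Promoter sequences of all 10 genes were found in a RefSeq table of build GRCm38.p6, as 12 windows, since Tsku and Il33 have 2 each. The windows of 3 are shown here as the 250 bases before the start, on the strand of the gene, because Scgb1c1 departed from the other 9 genes in its values, Muc2 lies in the same part of chromosome 7, and Sec14l3 had the most footprints. Capitals mark matches to the motifs searched, in either orientation. The windows are chr7:140845315-140845564 (plus strand) for Scgb1c1, chr7:141690090-141690339 (plus strand) for Muc2 and chr11:4064603-4064852 (plus strand) for Sec14l3.
Scgb1c1: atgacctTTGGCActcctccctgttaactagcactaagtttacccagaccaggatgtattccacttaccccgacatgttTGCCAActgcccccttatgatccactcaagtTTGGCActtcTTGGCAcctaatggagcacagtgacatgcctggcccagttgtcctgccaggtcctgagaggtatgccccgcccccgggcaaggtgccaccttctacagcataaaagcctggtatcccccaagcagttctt
Muc2: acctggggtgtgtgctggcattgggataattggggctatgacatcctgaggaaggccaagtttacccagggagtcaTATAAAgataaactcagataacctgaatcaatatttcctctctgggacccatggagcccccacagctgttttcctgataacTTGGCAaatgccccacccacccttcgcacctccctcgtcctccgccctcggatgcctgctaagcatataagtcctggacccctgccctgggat
Sec14l3: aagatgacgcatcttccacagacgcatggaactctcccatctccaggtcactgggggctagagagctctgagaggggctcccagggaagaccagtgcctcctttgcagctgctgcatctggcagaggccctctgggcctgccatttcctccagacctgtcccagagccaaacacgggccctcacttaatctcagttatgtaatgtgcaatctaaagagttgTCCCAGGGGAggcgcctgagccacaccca

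The 9 motifs listed here were searched on both strands of 300-base windows, and no match overlaps another in the printed sequences. TTGGCA, the half-site of nuclear factor I proteins, occurred in 14.1% of 32851 promoters and in 3 of the 10 genes, Scgb1c1, Muc2 and Il33. The Scgb1c1 window held 4 matches, at 243, 171, 140 and 130 bases before the start, and the Muc2 window held 1 at 93. The palindromic core motif of Ebf factors occurred in 0.904% of promoters and in Sec14l3 alone of the 10, at 29 bases before the start. TATAAA (13.6% of promoters) was found in Muc2 and Il33, and ACAAAG (18.7%) in Abca13 and Pon1. TGTTTAC (3.65%) and TAATTA (5.29%) were found in Il33 and TGACTCA (5.20%) in Gldn, while CCGGAAG (8.86%) and CACGTG (7.15%) were found in none. No motif was common to more than 3 of the genes. Base composition differed as widely: GC content was 74.4% in Cpm and 73.2% in Tyro3 against 45.2% and 39.6% in the windows of Il33, beside a median of 52.4% over all promoters.

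The labels list 8 footprint libraries, 2 per group, but the deposited table holds 1 column per group and assay. There is therefore no replicate check of any difference between groups, no test was made, and each interval given is a 95% interval for counting error. Reads are not independent molecules, so the intervals are a lower limit of the error. Wherever 4 values follow each other they stand for the Ngn1-GFP control, its KO, the OMP-GFP control and its KO. Columns held 4456989, 3031489, 3576406 and 4100841 footprints. They held 89327877, 27786809, 31855259 and 26946592 RNA reads, so the Ngn1-GFP control was by far the deepest in RNA. Mex3a had 437, 28, 16 and 5 footprints. Levels are counts scaled to library depth by TMM and given as CPM, unless another unit is named. A gene was called higher or lower at 2-fold or more, with an interval that excluded no difference. The Ngn1-GFP control column stood apart: it exceeded all of the others by 8-fold or more for 375 genes in RNA and for 54 in footprints, against at most 13 for any other column. The 54 include 8 of the 10 genes, which were chosen by those footprints, and the 375 include 0 of them. Comparisons between OMP-GFP KO and OMP-GFP control, or between both KO groups, are the ones that do not use this column. They are not free of the choice, which needed footprints in those groups to lie below this column. The genes were also chosen with earlier results of these data known.

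All 10 genes had more RNA in OMP-GFP KO cells than in OMP-GFP control cells, each past 2-fold. The median log2 ratio was 2.06, against 0.00 over all genes, and 4.40% of 14351 genes were called higher and 3.89% lower. Footprints went the same way with smaller ratios at the median: all 10 ratios were above 0, 8 intervals lay above 0 and 5 genes were called higher, against 7.12% of 11160 genes, and 0 were called lower, against 8.54%. The median log2 footprint ratio was 0.95. In Ngn1-GFP cells 9 of the 10 genes were lower in the KO in both assays, the comparison through which they were chosen, and Scgb1c1 was not among them. The fraction of support cells in a sorted sample and the RNA per cell cannot be told apart in these data.

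**Figure D1:**
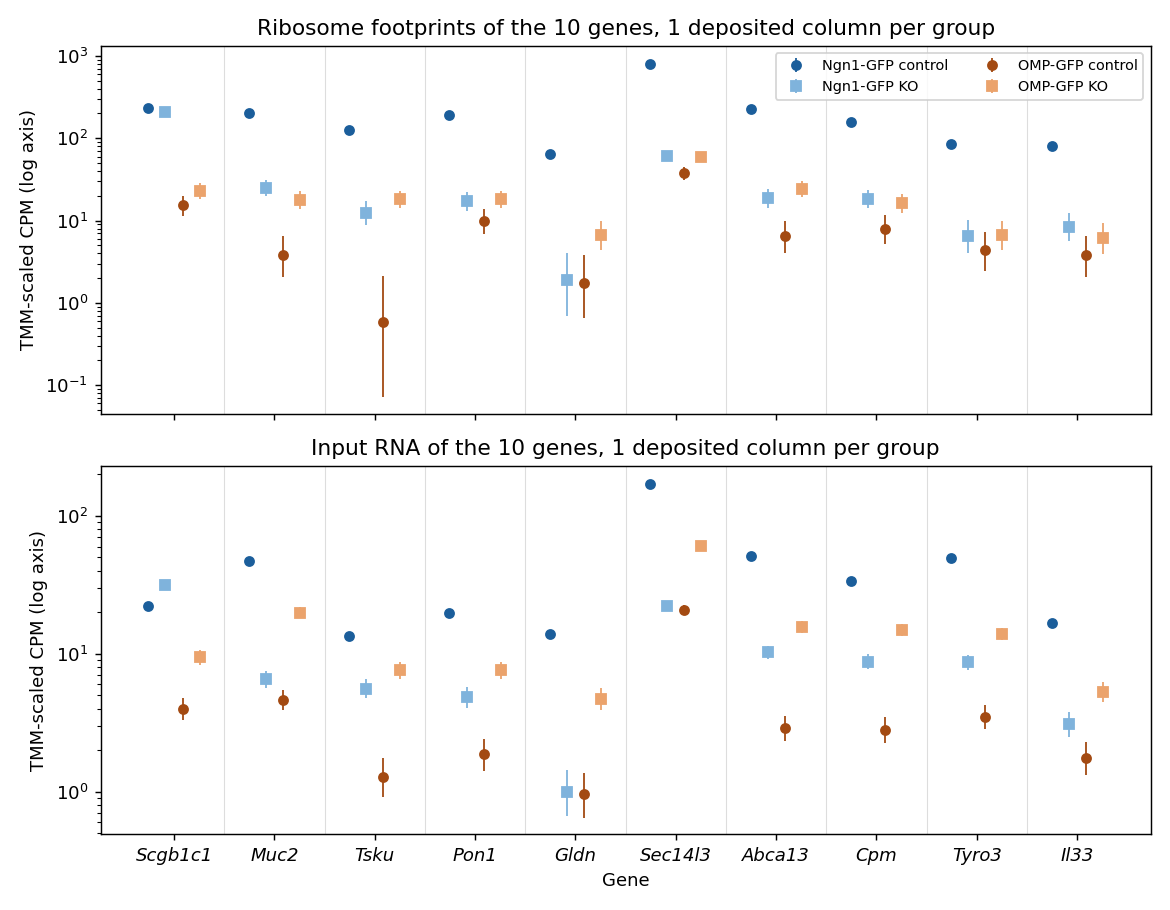
TMM-scaled CPM (log axis) of each of the 10 genes in the 4 groups, footprints above and input RNA below; points are the single deposited column per group and bars are 95% counting intervals. Scgb1c1 footprints were 234 CPM in Ngn1-GFP control and 210 CPM in Ngn1-GFP KO, and the other 9 genes were far lower in the KO.

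Scgb1c1 encodes a small secreted protein of the secretoglobin family. Its footprints were 234 CPM in Ngn1-GFP control, 210 CPM in Ngn1-GFP KO, 15.3 CPM in OMP-GFP control and 23.0 CPM in OMP-GFP KO. Its RNA was 22.1, 31.7, 3.98 and 9.49 CPM in the same order. Both Ngn1-GFP columns were high and both OMP-GFP columns low, and the Ngn1-GFP KO had the highest RNA level of the 4. The log2 ratio of KO over control in Ngn1-GFP cells was -0.16 (interval -0.30 to -0.02) for footprints and 0.52 (0.41 to 0.63) for RNA. By its footprints it is the member nearest to the limit of the choice, which it met by 234 against 210 CPM.

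Muc2 encodes a gel-forming mucin best known from the intestine. Its footprints were 200 CPM in Ngn1-GFP control, 25 CPM in Ngn1-GFP KO, 3.82 CPM in OMP-GFP control and 17.8 CPM in OMP-GFP KO, and its RNA was 47.1, 6.56, 4.65 and 19.9 CPM. The OMP-GFP KO had fewer of its footprints than the Ngn1-GFP KO, only just within counting error, but more of its RNA. In OMP-GFP cells the log2 ratio of KO over control was 2.22 (1.35 to 3.21) for footprints and 2.10 (1.83 to 2.37) for RNA.

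Tsku encodes Tsukushi, a secreted leucine-rich repeat proteoglycan that binds signalling proteins. It had 624, 40, 2 and 67 footprints, or 127, 12.5, 0.588 and 18.1 CPM. Its RNA was 13.4, 5.60, 1.28 and 7.60 CPM. The OMP-GFP control was lowest in both assays, and its 2 footprints make the footprint ratio there imprecise. KO over control in OMP-GFP cells was 4.95 (3.04 to 8.02) on the log2 scale for footprints and 2.57 (2.07 to 3.10) for RNA.

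Pon1 encodes paraoxonase 1, a secreted enzyme that hydrolyses lactones and the active forms of some pesticides. Its footprints were 191, 17.2, 9.99 and 18.1 CPM, and its RNA was 19.7, 4.84, 1.86 and 7.60 CPM. The 2 KO groups were close to each other in footprints, with a log2 ratio of OMP-GFP over Ngn1-GFP of 0.07 (-0.46 to 0.62). KO over control in OMP-GFP cells was 0.86 (0.24 to 1.5) for footprints, short of 2-fold, and 2.03 (1.60 to 2.48) for RNA.

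Gldn encodes gliomedin, an olfactomedin-domain protein that gathers axonal adhesion molecules at nodes of Ranvier. It had 320, 6, 6 and 25 footprints, or 65.0, 1.88, 1.76 and 6.76 CPM. Its RNA was 14.0, 0.996, 0.963 and 4.72 CPM. Ngn1-GFP KO and OMP-GFP control were about equally low, and Gldn had the most negative log2 ratio of the 10 in Ngn1-GFP cells, -5.11 (-6.57 to -3.98) in footprints and -3.81 (-4.40 to -3.28) in RNA. In OMP-GFP cells KO over control was 1.94 (0.62 to 3.51) in footprints and 2.29 (1.71 to 2.92) in RNA.

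Sec14l3 encodes a lipid-binding protein of the SEC14 family. It had the most footprints of the 10 genes in the Ngn1-GFP control, 3958, and its level there was 804 CPM, against 61.6 CPM in Ngn1-GFP KO, 37.3 CPM in OMP-GFP control and 60.0 CPM in OMP-GFP KO. Its RNA was 171, 22.3, 20.9 and 61.0 CPM. In RNA the OMP-GFP KO stood well above the Ngn1-GFP KO, with a log2 ratio of 1.45 (1.32 to 1.58), whereas in footprints the ratio was -0.04 (-0.32 to 0.25). KO over control in OMP-GFP cells was 0.69 (0.36 to 1.01) in footprints and 1.55 (1.42 to 1.68) in RNA.

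Abca13 encodes a very large transporter of the lipid-moving ABCA family. Its footprints were 225, 18.8, 6.46 and 24.3 CPM, and its RNA was 50.8, 10.2, 2.89 and 15.6 CPM. OMP-GFP KO was the second highest column in both assays, in footprints within counting error of the Ngn1-GFP KO. KO over control in OMP-GFP cells was 1.91 (1.23 to 2.66) in footprints and 2.43 (2.10 to 2.78) in RNA.

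Cpm encodes carboxypeptidase M, a membrane-anchored enzyme that removes basic residues from the ends of peptides. Its footprints were 158, 18.5, 7.93 and 16.2 CPM, and its RNA was 33.5, 8.79, 2.82 and 14.9 CPM. The 2 KO groups did not differ in footprints beyond counting error. KO over control in OMP-GFP cells was 1.03 (0.35 to 1.74) in footprints, just past 2-fold, and 2.40 (2.06 to 2.75) in RNA. Scaled by library size alone the footprint ratio was 0.95, short of 2-fold, and 4 of the 10 genes rather than 5 were called higher.

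Tyro3 encodes a receptor tyrosine kinase of the TAM family, whose ligands mark dead cells for uptake. Its footprints were 85.5, 6.57, 4.41 and 6.76 CPM, and its RNA was 49.6, 8.72, 3.50 and 14.0 CPM. With 15 and 25 footprints in OMP-GFP control and KO, the footprint ratio of 0.62 (-0.36 to 1.65) did not show a difference at this depth, while the RNA ratio was 2.0 (1.69 to 2.32).

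Il33 encodes interleukin-33, a cytokine stored in the nucleus and released from damaged cells. Its footprints were 80.2, 8.44, 3.82 and 6.22 CPM, and its RNA was 16.8, 3.09, 1.76 and 5.30 CPM. It had 13 and 23 footprints in the OMP-GFP columns, so its footprint ratio there, 0.70 (-0.34 to 1.81), was likewise not detectable, beside an RNA ratio of 1.59 (1.13 to 2.06).

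In the Ngn1-GFP comparison the 9 genes other than Scgb1c1 had log2 footprint ratios from -5.11 to -3.0 and RNA ratios from -3.81 to -1.26. All were called lower, beside 10.8% of genes in footprints and 11.3% in RNA, with 6.49% and 4.49% called higher, and nothing is read from this since the choice used that column. Tsku showed the widest gap between the assays, -3.34 (-3.84 to -2.88) in footprints and -1.26 (-1.51 to -1.03) in RNA. Muc2 showed the narrowest of the 9, -3.0 and -2.85. Between the control populations all 10 genes were lower in OMP-GFP cells, with median log2 ratios of -4.41 in footprints and -3.40 in RNA, where 17.4% and 23.3% of genes were called lower and 6.11% and 3.49% higher. This too is a description.

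Counting error is not the spread between mice. Among 6381 genes with 30 to 350 footprints in the OMP-GFP pair, log2 ratios of KO over control had an SD of 0.95, against 0.34 expected from counting. Among 3766 genes with 30 to 350 RNA counts in that pair the SD was 0.98, against 0.34. Footprint ratios of Scgb1c1, Sec14l3, Pon1, Tyro3 and Il33, from 0.59 to 0.86, lay within 1 such SD of 0. All 10 RNA ratios, from 1.25 to 2.57, lay beyond 1 such SD, although 6 of the 10 genes had more RNA counts than the genes behind it. This spread over genes includes any true differences.

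In KO mice the footprints of 8 of the 10 genes did not differ between the populations beyond counting error. Muc2 was only just among the 8, at -0.49 (-0.98 to 0.0006), so its place there depends on the scaling. The median log2 footprint ratio of OMP-GFP over Ngn1-GFP was 0.00. Gldn was called higher, 1.85 (0.53 to 3.42), and Scgb1c1 lower, -3.19 (-3.54 to -2.87), where 11.3% of 11766 genes were called higher and 18.4% lower. In RNA 9 of 10 intervals lay above 0, with a median of 0.72. Muc2 (1.60), Gldn (2.25) and Sec14l3 (1.45) were called higher and Scgb1c1 lower (-1.74), where 4.77% and 16.4% of genes were called. An interval that holds 0 does not show that levels were equal: for Tyro3, with 21 and 25 footprints, it ran from -0.85 to 0.95.

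**Figure D2:**
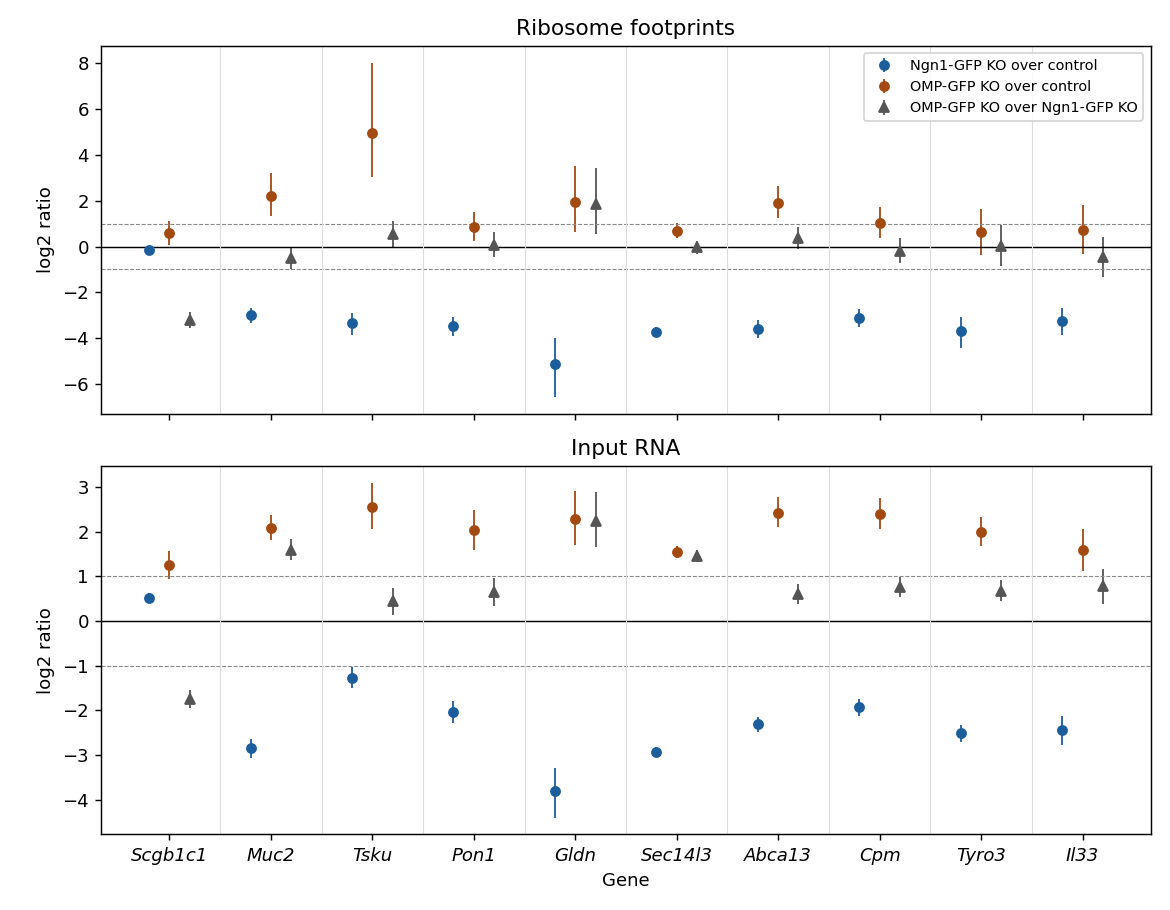
Log2 ratios of each gene for KO over control in Ngn1-GFP cells, KO over control in OMP-GFP cells, and OMP-GFP KO over Ngn1-GFP KO, footprints above and RNA below; bars are 95% counting intervals and dashed lines mark 2-fold. All 10 OMP-GFP ratios of KO over control lie above 0, and Scgb1c1 has a footprint ratio of -3.19 between the KO groups.

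The 10 genes together held 10683, 1217, 311 and 730 footprints. Scgb1c1 contributed 10.8% in Ngn1-GFP control, 55.2% in Ngn1-GFP KO (exact binomial interval 52.4 to 58.0), 16.7% in OMP-GFP control and 11.6% in OMP-GFP KO. Its share of RNA was 5.04%, 30.8%, 8.93% and 5.93%. The Ngn1-GFP KO was thus the column in which Scgb1c1 made up most of the sum. Without Scgb1c1, a split made after its values were seen, the 9 genes summed to 1936, 170, 76.1 and 174 footprint CPM and to 416, 71.1, 40.6 and 151 RNA CPM. Among these 9, Sec14l3 held 41.5%, 36.1%, 49.0% and 34.4% of footprints, a narrower range.

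**Figure D3:**
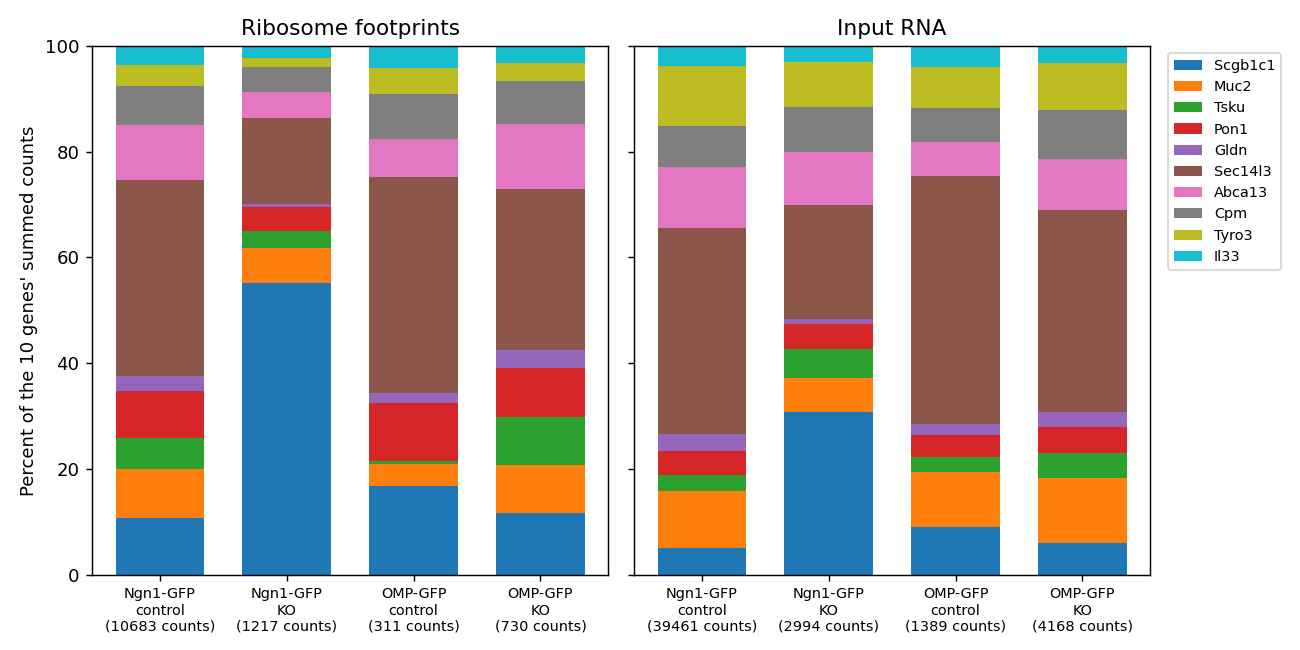
Percent of the summed counts of the 10 genes that came from each gene, by group, for footprints (left) and input RNA (right); the sums are given under the bars. Scgb1c1 made up 55.2% of footprints in Ngn1-GFP KO and at most 16.7% in the other groups.

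Per length the order of the genes changed. In the Ngn1-GFP control the deposited footprint RPKM was 898 for Scgb1c1, whose coding length is 288 bases, and 736 for Sec14l3. Pon1 followed at 198, Tsku and Cpm at 131 each and Il33 at 105. Gldn (43.5), Tyro3 (34.7), Muc2 (31.9) and Abca13 (16.5) were lower, and Abca13 has a coding length of 15108 bases. In RNA, Sec14l3 had 182 TPM and Scgb1c1 98.6 TPM, and the lowest was Abca13 at 4.33. In the Ngn1-GFP KO Scgb1c1 led both lists, at 770 RPKM and 166 TPM, followed by Sec14l3 at 53.9 RPKM and 28 TPM.

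Footprints per RNA (the ratio of the CPM values, called efficiency here) were above the typical gene for most of the 10. The member medians were 2.24, 1.31, 0.99 and 0.37 on the log2 scale, against -0.10 to 0.04 over all genes. The first value was open to the choice, since the footprints of that column chose the genes. All 10 had their highest efficiency in that column: 3.41 for Scgb1c1, 3.28 for Pon1 and 3.24 for Tsku, and 0.79 for Tyro3, the lowest. In Ngn1-GFP cells 6 of the 10 efficiencies were called lower in the KO and 0 higher, beside 9.68% and 8.06% of genes. Between the control populations 6 were called lower in OMP-GFP cells and 0 higher, beside 8.47% and 6.0%.

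In the comparisons that do not use the Ngn1-GFP control column, efficiency was also lower in OMP-GFP KO cells for some of the genes. Pon1 (-1.17), Cpm (-1.37) and Tyro3 (-1.38) were called lower in KO over control, where 8.86% of genes were, and Tsku was called higher at 2.38 (0.29 to 4.47) on its 2 control footprints, where 7.12% were. The median of the 10 was -0.76. In OMP-GFP KO over Ngn1-GFP KO, Scgb1c1 (-1.45), Muc2 (-2.09), Sec14l3 (-1.49) and Il33 (-1.22) were called lower and 0 higher, beside 12.5% and 9.71% of genes. Muc2 had an efficiency of 2.09 and 1.93 in the Ngn1-GFP columns and of -0.28 and -0.16 in the OMP-GFP columns. The first of these was open to the choice, and the OMP-GFP control value, with an interval of -1.10 to 0.53, rests on 13 footprints.

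**Figure D4:**
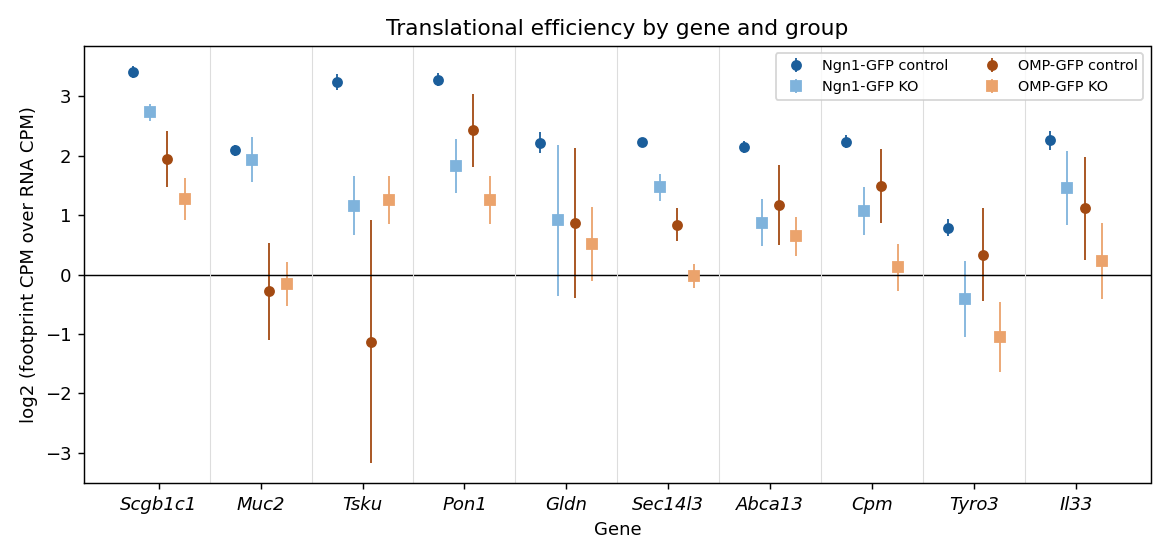
Log2 ratio of footprint CPM over RNA CPM for each gene in the 4 groups, with approximate 95% counting intervals. All 10 genes are highest in Ngn1-GFP control, from 0.79 for Tyro3 to 3.41 for Scgb1c1, and Muc2 is near 0 in both OMP-GFP groups.

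Many markers of sustentacular cells were lower in the Ngn1-GFP KO and higher in the OMP-GFP KO, as most of the 10 genes were. The summed footprints of 28 sustentacular markers were 7206 CPM in Ngn1-GFP control, 1553 in Ngn1-GFP KO, 1038 in OMP-GFP control and 1506 in OMP-GFP KO. Of those with enough counts, 18 of 24 were called lower and 1 higher in the Ngn1-GFP KO, beside 10.8% and 6.49% of genes. In the OMP-GFP KO 9 of 15 were called higher and 0 lower, beside 7.12% and 8.54%, with 13 of 23 higher in RNA, beside 4.40%. Cyp2g1, a cytochrome P450 of sustentacular cells, had the most footprints of the list over the 4 columns, with 2137, 146, 58.8 and 234 CPM. Acsm4, a medium-chain acyl-CoA synthetase and next in footprints, was called in neither population: it had 567, 452, 750 and 720 CPM, with log2 ratios of KO over control of -0.33 and -0.06 in footprints and -0.10 and -0.02 in RNA. It made up most of the sum in the OMP-GFP control, and without it, a choice made after its values were seen, the other 27 summed to 6640, 1101, 287 and 786 CPM. In both OMP-GFP columns Cyp4a12b, Steap4, Elovl6, Tff2 and Dio1 had no footprint. The 24 gland markers summed to 1429, 1693, 240 and 882 CPM, and did not go down together in the Ngn1-GFP KO. There 5 of 19 were called higher and 2 lower, beside 6.49% and 10.8% of genes, and in the OMP-GFP KO 13 of 18 were called higher, beside 7.12%. Obp1b, Lcn4 and Gp2 had no footprint in either OMP-GFP column. The part of these lists in the results was not tested.

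As sums, other cell types moved less or differently. Basal markers summed to 237, 221, 89.0 and 57.9 footprint CPM, and microvillar and tuft markers to 369, 175, 35.5 and 52.2. Immune markers summed to 43.9, 31.3, 25.6 and 32.2, and ensheathing glia markers to 342, 487, 146 and 183. Of 12 measured microvillar and tuft markers 5 were called lower in the Ngn1-GFP KO and 2 higher, beside 10.8% and 6.49% of genes. The lower ones were Krt18, Krt8, Atp6v1b1, Atp6v0a4 and Atp6v1c2, and the higher ones Cftr and Hepacam2. In RNA the same 5 of 16 were called lower and 3 higher, Foxi1, Avil and Il25, beside 11.3% and 4.49%. Of these 16 RNA ratios 11 were above 0. In footprints of the OMP-GFP KO 1 of 4 was called higher and 0 lower, beside 7.12% and 8.54%. Precursor and immature neuron markers summed to 11348, 13315, 9834 and 10038 CPM, so as a sum they separated the sorts little. Of 17 measured, 9 were called lower in OMP-GFP control than in Ngn1-GFP control, where 17.4% of genes were. Mature neuron markers summed to 34917 and 40048 CPM in Ngn1-GFP columns against 61488 and 71504 in OMP-GFP columns. These sums do not give the share of labelled cells in a sort. The neuron lists thus stood well above the 10 genes in every column.

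Scgb1c1 lay between both support lists. Over the 8 columns of footprints and RNA, its log2 level correlated with the mean of the sustentacular markers at r = 0.85 and with that of the gland markers at r = 0.86. The other 9 genes correlated with sustentacular markers at 0.84 to 0.96 and with gland markers at 0.34 to 0.75. These are descriptions over 8 columns that share groups and assay. The columns include the Ngn1-GFP control footprints by which the genes were chosen, so the values of r were open to that choice. The cell type behind a gene was not tested.

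**Figure D5:**
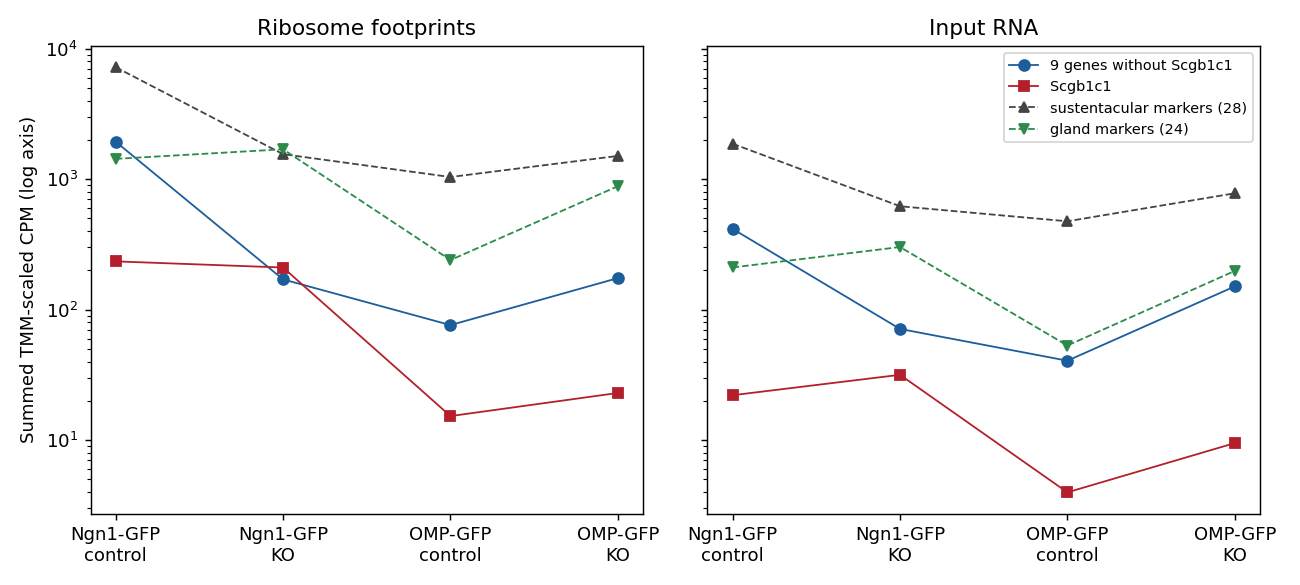
Summed TMM-scaled CPM (log axis) of the 9 genes without Scgb1c1, of Scgb1c1, and of the sustentacular and gland marker lists, in the 4 groups, for footprints (left) and input RNA (right); lines join the values of 1 list. The 9 genes summed to 1936 footprint CPM in Ngn1-GFP control and 170 in Ngn1-GFP KO, while gland markers were at 1429 and 1693.

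The genes whose profile over the 8 columns was most like the mean of the 10 were ranked among 10206 genes with at least 100 footprints. They were Lrp2 (r = 0.98), a large endocytic receptor, Ugt2a2, an odorant-conjugating enzyme, Atp6v1c2, a proton pump subunit, and Galm, a sugar-converting enzyme. Sftpd, a collectin of mucosal defence, Gstm1, a glutathione transferase, Mettl7a1 and Cyp2g1 followed, all at r = 0.98 after rounding. Ugt2a2 and Cyp2g1 are on the sustentacular list and Atp6v1c2 on the microvillar list. The mean profile includes the Ngn1-GFP control footprints that chose the 10 genes, so a high rank was open to that choice. Most of these names changed when the footprint columns were used alone, as given below. Lrp2 had 380, 39, 13 and 27 footprints.

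Relatives of the 10 genes were followed in the Ngn1-GFP KO, where 10.8% of all genes were called lower and 6.49% higher in footprints. A count of 1 gene in a list of 6 to 8 is near that background and is not read as a result. Of 8 measured mucins 7 had a ratio below 0, 5 were called lower and 1 higher. Examples were Muc16, a membrane mucin, at -2.10 (389 and 59 footprints), and Muc5b, the gel-forming mucin of glands, at 1.76 (289 and 636 footprints). Muc5b lies near Muc2 on chromosome 7, in the order Muc6, Muc2, Muc5ac, Muc5b. In OMP-GFP RNA Muc16 was higher in the KO, at 2.38, as Muc2 was. Of 7 mucins measured there Muc16 was the 1 called higher and Muc5ac the 1 called lower, beside 4.40% and 3.89% of genes. The Muc16 footprint ratio in OMP-GFP cells, 0.70 (-0.34 to 1.81) on 13 and 23 footprints, was not called. Of 6 SEC14-like genes 1 was called lower in the Ngn1-GFP KO, Sec14l2 at -1.73, a neighbour of Sec14l3 with 1265, 247, 438 and 520 footprints. Sec14l5 was at 0.07. Of 7 ABCA transporters 1 was called lower, and the most abundant, Abca5 and Abca3, were at 0.75 and 0.57.

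Neither paraoxonase neighbour of Pon1 on chromosome 6 was called in the Ngn1-GFP KO. Pon3 was lower by less than 2-fold, at -0.45 (-0.55 to -0.34) with 2191 and 1044 footprints. Pon2 was at -0.06 (-0.33 to 0.20). Of 8 carboxypeptidases 1 was called lower there and 0 higher, and Cpe, which processes neuropeptides, and Cpd were at -0.09 and 0.30. Of 12 gliomedin partners and olfactomedin genes 2 were called higher and 0 lower, with Olfm1 at -0.20 and Adgrl3 at 0.25. Of 6 measured genes on a list of TAM receptors, TAM ligands and Mfge8, 1 was called higher and 0 lower. The higher one was Mfge8, a bridging protein for dead-cell uptake, at 1.00, and Tub was at 0.06. Among 9 measured genes of the interleukin-1 family and IL-33 signalling 3 were called lower, including Il18 at -1.23, 7 had a ratio below 0 and the median was -0.69, while Sigirr was at 0.28. Il1rl1, which encodes the IL-33 receptor, had 0 footprints in all 4 columns. Of 15 other secretoglobins 1 was measurable, Scgb2b27, with 47, 17, 4 and 77 footprints and a log2 ratio of 4.15 (2.73 to 6.06) for KO over control in OMP-GFP cells, where Scgb1c1 was at 0.59.

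On GRCm38.p6 the genes lie at chr7:140845565-140846769 (Scgb1c1), chr7:141690340-141754691 (Muc2), chr7:98350668-98361390 (Tsku), chr6:5168090-5193987 (Pon1), chr9:54286486-54341777 (Gldn), chr11:4064853-4078990 (Sec14l3), chr11:9191942-9684871 (Abca13), chr10:117629500-117687352 (Cpm), chr2:119797740-119818104 (Tyro3) and chr19:29925113-29960718 (Il33). All are annotated as protein coding.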

How the data were processed

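Footprints and input RNA of sorted cells were analysed from 1 deposited table with 24 value columns, 6 for each of 4 groups. Per the file headers, the authors gave read counts over coding sequences for footprints and RNA, a coding length in bases, footprint RPKM, RNA TPM and a translational efficiency ratio. FastQC, cutadapt, STAR and mm10 are named in the submitters' processing notes; strandedness of counting and how 2 libraries became 1 column are not stated in the labels or headers. The authors' efficiency ratio equals the one computed here times a constant of 1.46, 1.35, 1.29 and 1.29 by group.

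Counts were scaled with TMM (edgeR 4.0.16, R 4.3.3) after filterByExpr, which kept 13479 genes for footprints and 16388 for RNA. All 10 genes passed that filter, through their high group among others. Ratios needed 20 counts in the pair. Their 95% intervals are exact conditional binomial intervals (Python 3.11.15, scipy 1.17.1), and approximate ones for efficiency. Only the binomial intervals were checked, on simulated Poisson counts, which hold no spread beyond counting. Similarity was Pearson's r on log2 (CPM + 1). Columns were assigned to groups by name and description.

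The 10 genes and all 18 gene lists were chosen with earlier results of these data known. Of 259 list entries 252 were in the table. Named were the 10 genes, Mex3a, for each list the 2 genes with the most footprints, of which not all are printed, and the 8 most similar genes with an established name (the third in rank has a predicted or clone name and was left out); other names were chosen for position, for absence of footprints, or after their values were seen. Other settings tried were size factors of DESeq2 1.42.0, scaling by library size, TMM without receptor, mitochondrial and ribosomal protein genes, other count minimums and a pseudocount of 5.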

Additional observations from a re-analysis of the deposited data

Results flagged for a closer look

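By sign, KO over control went opposite ways in the 2 populations for all 10 genes in footprints and for 9 in RNA. The ratios were lower in Ngn1-GFP cells and higher in OMP-GFP cells. The OMP-GFP footprint intervals of Tyro3 (-0.36 to 1.65) and Il33 (-0.34 to 1.81) held 0. In Ngn1-GFP cells the Scgb1c1 footprint ratio was -0.16 (-0.30 to -0.02), and with DESeq2 size factors its interval held 0. With 1 column per group the difference was not tested, and the Ngn1-GFP ratio used the column by which the genes were chosen. On the log2 scale the OMP-GFP ratio exceeded the Ngn1-GFP ratio in footprints by 8.29 for Tsku, 7.05 for Gldn, 5.50 for Abca13, 5.23 for Muc2, 4.39 for Sec14l3, 4.33 for Pon1, 4.32 for Tyro3, 4.13 for Cpm and 3.95 for Il33. For Scgb1c1 the footprint difference was 0.75, and its RNA was higher in the KO of both populations. In RNA the difference was 6.11 for Gldn, 4.94 for Muc2, 4.75 for Abca13, 4.51 for Tyro3, 4.48 for Sec14l3, 4.33 for Cpm, 4.06 for Pon1, 4.03 for Il33 and 3.83 for Tsku.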

How the results depend on the processing

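Each group had 1 column, so the groups' own spread is unknown, and genes with few footprints, such as Tsku, Gldn, Tyro3 and Il33 in OMP-GFP cells, are limited by counting. No paired analysis was possible because the columns carry no replicate number, and leaving out a replicate was not run for the same reason. Of 395 ratios of single genes under other scalings and count minimums, 0 left their own counting interval and 0 called ratios changed sign. The sign of 2 ratios that were not called changed by library size alone, in footprints of OMP-GFP KO over Ngn1-GFP KO: Pon1 went from 0.07 to -0.15 and Tyro3 from 0.04 to -0.18. In OMP-GFP footprints 4 of the 10 genes were called higher in the KO by library size alone, without Cpm at 0.95, and 4 with a minimum of 50 counts. With a minimum of 50 counts, 0 of the genes were called higher in footprints of OMP-GFP KO over Ngn1-GFP KO, since Gldn had too few. The median log2 efficiency in Ngn1-GFP control was 2.37 by library size and 2.78 in the authors' deposited column, and in Ngn1-GFP KO 1.74 in that column. Of the 8 most similar genes 1 was shared when the footprint columns were used alone; with a pseudocount of 5 the count changed by less than 1.5 times. Without Scgb1c1, chosen after its values were seen, the sums were 1936, 170, 76.1 and 174 footprint CPM and 416, 71.1, 40.6 and 151 RNA CPM.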

Other observations

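Small leucine-rich proteoglycans of connective tissue matrix, the family to which Tsku belongs, differed from Tsku in some comparisons and not in others. In the Ngn1-GFP KO 5 of 9 measured members, Fmod, Ogn, Prelp, Aspn and Chad, were called higher in footprints and 0 lower, beside 6.49% and 10.8% of genes. The ratio was above 0 for 8 of the 9, and the median was 1.21 on the log2 scale, against -3.34 for Tsku. Between the KO groups all 9 measured members were called lower in OMP-GFP cells, where 18.4% of genes were, with a median of -4.12. The Tsku ratio there was 0.53 (-0.05 to 1.14). Among the 9, Bgn, Lum, Fmod, Prelp, Aspn and Chad had no footprint in the OMP-GFP KO. A count of 0 was set to 3 for a ratio, so their ratios, and perhaps the median, rest on that setting. Between the control populations all 7 measured members were called lower in OMP-GFP cells, where 17.4% of genes were. Their median was -3.53, and Tsku was lower too, at -7.75. Dcn, with the most footprints of the list, had 715, 348, 23 and 94 in the groups' order used above. Its ratio in the Ngn1-GFP KO was -0.42 (-0.61 to -0.23), and it was called higher in OMP-GFP KO over control in both assays, at 1.91 in footprints and 1.20 in RNA, as Tsku was.

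Muc5ac, which lies between Muc2 and Muc5b and was singled out after its values were seen, had 1594 RNA counts and 24 footprints in the Ngn1-GFP control. Muc5b had 1261 and 289 there, and Muc2 had 4248 and 986.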
